A study of Eriocheir sinensis with 6 samples.

Results

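The most abundant transcripts of Chinese mitten crab (Eriocheir sinensis) muscle in the inter-molt stage were the 149 genes, of 28671 in the annotation, whose mean level over 3 crabs was at least 1000 FPKM. FPKM is the number of sequenced fragments per kilobase of exon, scaled to the size of the library. The libraries came from muscle of untreated juvenile crabs, taken from the walking legs according to the methods, in the inter-molt stage, when the shell is hard and the next molt is not yet prepared, and the muscle sample of each crab was split between RNA-seq and ATAC-seq. There was 1 library per crab and assay, 3 RNA and 3 ATAC libraries in all, so no other stage or treatment could be compared. ATAC-seq marks open chromatin, which the Tn5 transposase can cut.

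Muscle fibres are filled with contractile filaments, and the messages for filament proteins and for the enzymes that supply them with ATP are among the most abundant in muscle of many animals. A gene can reach such a level through frequent transcription, a stable message or both, and RNA-seq measures only the amount present. Open chromatin at a transcription start site (TSS) goes with use of the promoter. The files pair no gene with a name or function, and a RefSeq table of the species shared 0 identifiers with them. The genes are therefore given by identifier, and the label of the tissue could not be checked against muscle markers. In bulk tissue, fewer cells of a type and less RNA per cell cannot be told apart.

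The level in FPKM chose these genes, so their levels are a description and were not tested. The deposited levels were traced back to reads, and the 3 libraries held between 6772294 and 7920094 of them. The 149 genes took 58.0% of the reads in crab 1, 52.5% in crab 2 and 72.4% in crab 3, or 61.0% ± 10.3 (SD, n = 3). The Wilson intervals of these shares are at most 0.1 points wide and cover counting error only. The 532 genes of the next class, 100 to 1000 FPKM, took 18.7% ± 2.49 (SD, n = 3). Within the abundant set the reads were again uneven, as 11, 11 and 8 genes held 50% of them in crabs 1, 2 and 3. Depth was ample, since the abundant gene with the fewest reads still had 82 in crab 1, 336 in crab 2 and 1930 in crab 3.

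The highest mean level belonged to evm.TU.CM024112.1.203 (CM024112.1, positions 6971213 to 6973174, plus strand), a short gene with 40.2% intron. It stood at 38355 FPKM in crab 1, 24448 in crab 2 and 218823 in crab 3. Its first place in the ranking thus rests on crab 3. The next 2 places were held by neighbours on CM024117.1. The gene evm.TU.CM024117.1.150 (positions 5216908 to 5217186, plus strand) had 75620.3, 74853 and 108555 FPKM, and evm.TU.CM024117.1.149 (positions 5214593 to 5215193) had 54258, 49923 and 100513 FPKM. Both led the ranking in crabs 1 and 2, and both are among the shortest models of the set, with 279 and 255 bases of exon. The first has no intron, and only 1714 bases lie between them.

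The fourth to sixth places were held by genes that are mostly intron. The gene evm.TU.CM024149.1.29 had 34584, 27667 and 44472 FPKM in crabs 1, 2 and 3. A locus that the authors added on CM024101.1 (positions 9451358 to 9529814, plus strand) had 28171, 21345 and 56605 FPKM. The gene evm.TU.CM024102.1.206 had 28034, 22111 and 44328 FPKM, with 717 bases of exon in a span of 43210 bases. Introns fill 96.4%, 97.2% and 98.3% of these models. In the eighth place evm.TU.CM024154.1.286, with 98.8% intron, had 34800.4, 26488 and 15869 FPKM, so that crab 3 stood at 0.456 times crab 1, or 0.216 times when each library was scaled to its plain total of reads. The gene evm.TU.CM024107.1.221 had 14147, 10834 and 55486 FPKM, and evm.TU.CM024164.1.214, an intronless model of 1676 bases, had 9200, 5567 and 45436 FPKM.

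**Figure D1:**
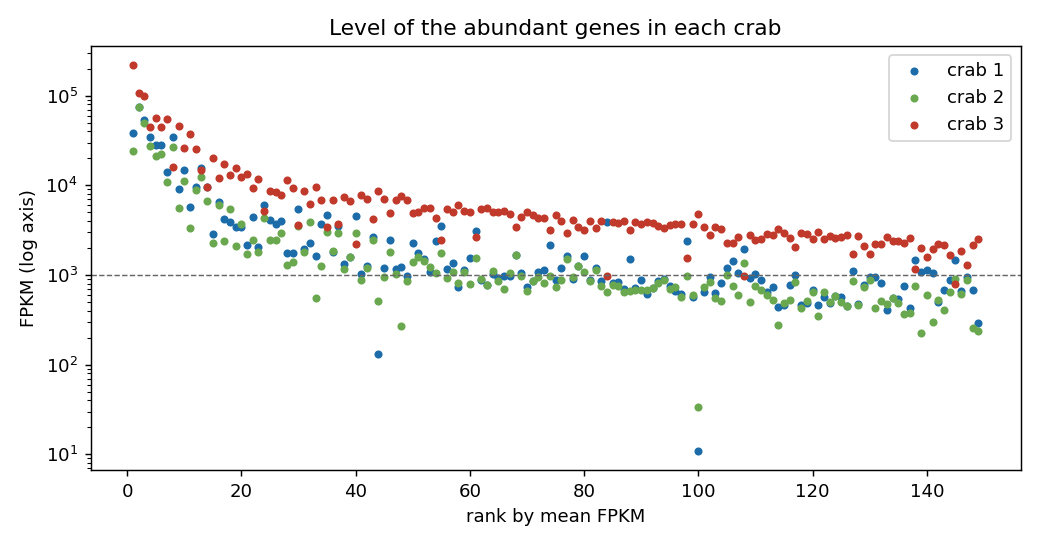
FPKM (log axis) of the 149 abundant genes in each crab, ordered by mean FPKM, in the deposited scaling; the dashed line is the threshold of 1000. The points of crab 3 lie above those of crabs 1 and 2 along most of the ranking, and 146 genes reached the threshold in crab 3 against 83 in crab 1 and 61 in crab 2.

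The remaining genes among the 20 highest ran from evm.TU.CM024102.1.204, with 14851, 11324 and 25852 FPKM, down to evm.TU.CM024134.1.398, with 3450, 3706 and 12434 FPKM. Between them stood evm.TU.CM024140.1.211, evm.TU.CM024098.1.339, evm.TU.CM024113.1.178, evm.TU.CM024119.1.475, evm.TU.CM024113.1.127, evm.TU.CM024102.1.207, an added locus on CM024114.1 (positions 4830710 to 4895702, plus strand), evm.TU.CM024136.1.421 and evm.TU.CM024114.1.113. Introns filled over 90% of the span in 13 of these 20 genes and in 38.0% of the other abundant genes. The span was at least 20 kb in 8 of the 20 and in 11.6% of the others.

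At the lower end the threshold cut through a continuous range. The last 3 genes inside it were evm.TU.CM024131.1.49, evm.TU.CM024124.1.8 and evm.TU.CM024127.1.112, with means of 1046, 1034 and 1009 FPKM. The first 3 outside it were evm.TU.CM024117.1.308, evm.TU.CM024149.1.24 and evm.TU.CM024152.1.284, with means of 998.7, 977.7 and 935.8 FPKM. Only 59 of the 149 genes had at least 1000 FPKM in every crab.

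The abundant genes had a short total exon length in genes of ordinary span. Their exon length, summed over the exons of a gene, had a median of 803 bases (interquartile range 549 to 1392), against 1069.5 bases in the next class, 1399 in genes of 1 to 100 FPKM and 1069 in all genes. The median span was 6724 bases (interquartile range 3723 to 12821), against 6561, 7986.5 and 5689 bases. FPKM divides by exon length, so the rule itself favours short models. When the 149 genes with the most reads were taken instead, with no division by length, the median exon length was 1638 bases, above that of all genes.

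Introns took a larger part of the abundant genes than of other classes. The median intron share was 87.8%, against 83.4% in the next class, 80.0% in genes of 1 to 100 FPKM and 77.3% in all genes. Intronless models were few, 5 of 149 (3.36%) against 11.1% of the next class and 14.7% of all genes. They were evm.TU.CM024117.1.150, evm.TU.CM024164.1.214, evm.TU.CM024123.1.205, evm.TU.CM024127.1.180 and evm.TU.CM024134.1.396. Among the 149 genes with the most reads the median intron share was 83.1%. Within the abundant set neither length went with level, as the Spearman rho with mean FPKM over 149 genes was -0.01 for exon length and 0.01 for span.

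**Figure D2:**
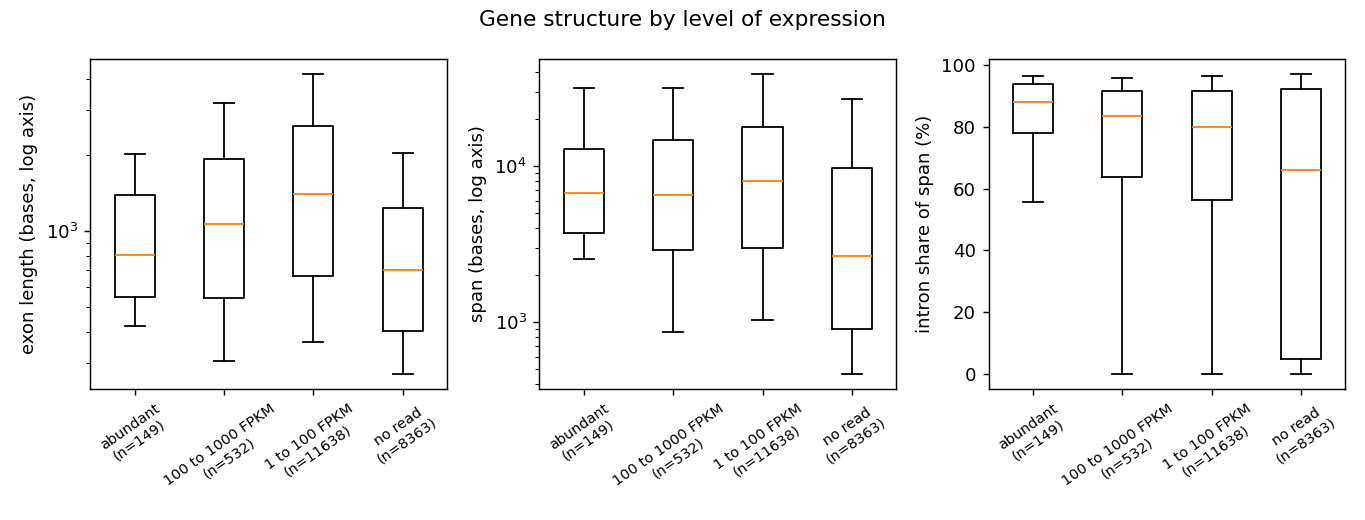
Exon length and span (bases, log axes) and the intron share of the span for genes grouped by mean FPKM; lines are medians, boxes the middle 50% and whiskers the 10th to 90th percentiles. Abundant genes have a shorter total exon length (median 803 bases) and a higher intron share (median 87.8%, 10th percentile 55.7%) than the next class.

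The extremes of the set differed widely. The shortest spans were those of evm.TU.CM024117.1.150 (279 bases), evm.TU.CM024127.1.180 (498), evm.TU.CM024134.1.396 (507), evm.TU.CM024117.1.149 (601) and evm.TU.CM024098.1.336 (756). The longest were evm.TU.CM024139.1.176 (89949 bases), the added locus with the highest level, on CM024101.1 (78457), evm.TU.CM024113.1.178 (72954), evm.TU.CM024154.1.286 (66991) and the added locus on CM024114.1 (64993). Exon length was greatest in evm.TU.CM024127.1.182 (5664 bases), the added locus on CM024114.1 (4964), evm.TU.CM024141.1.116 (4742), an added locus on CM024127.1 (4448) and evm.TU.CM024096.1.144 (3631). Loci that the authors added to the annotation made up 7 of the 149 (4.70%), close to the 3.76% of the next class, against 25.7% of all genes. Some 79 of the 149 lay on the plus strand.

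All abundant genes lay on placed sequences, while 0.940% of the next class and 1379 of all genes (4.81%) lay on unplaced ones. The abundant genes were spread over 55 of the 72 placed sequences. Most stood on CM024141.1, with 7 of its 347 genes, or 2.02% against 0.546% of all genes on placed sequences. CM024127.1 and CM024131.1 each held 6.

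Abundant genes often had another abundant gene close by. Of the 149, 39 (26.2%) had one within 50 kb, against 9.59% of the next class, 3.77% of genes of 1 to 100 FPKM and 3.01% of all genes. For 29 (19.5%) it was the very next model in order, against 4.32% of the next class. The 39 genes formed 17 runs, 12 of 2 genes and 5 of 3. Of the 22 consecutive pairs 15 lay on the same strand, 4 were convergent and 3 divergent. The 15 include 5 pairs under 2 kb apart that may not be separate genes. No share of same-strand pairs is given for other genes. Of the 20 highest genes 11 had an abundant neighbour within 50 kb, and of the other 129 genes 28 had one.

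The files do not tell whether all neighbours are separate genes. In 5 same-strand pairs the gap between the models was only 8 to 1714 bases, and whether these are separate transcripts or pieces of 1 was not tested. Counting each such pair as 1 locus left 32 of 144 loci (22.2%) within 50 kb of another. This count was added after the data had been seen. Near-identical copies are also uncertain, because reads that mapped to several places had been left out.

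Ratios between crabs depend on the scaling of the libraries. Scaling each library to its plain total of reads multiplies every ratio of crab 3 to crab 1 by 0.473, so that a deposited ratio under 2.11 falls below 1.

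Of the 5 runs of 3 genes, that with the highest levels lay on CM024102.1 (positions 7207012 to 7270660). Its genes evm.TU.CM024102.1.204, evm.TU.CM024102.1.206 and evm.TU.CM024102.1.207 ranked 10th, 6th and 16th, and the ratio of crab 3 to crab 1 was 1.74, 1.58 and 1.88 in the deposited scaling and 0.823, 0.748 and 0.889 with plain totals. On CM024098.1 (positions 12944932 to 12995294) evm.TU.CM024098.1.336 had 1255, 1257 and 3395 FPKM in crabs 1, 2 and 3. Its neighbours evm.TU.CM024098.1.337 and evm.TU.CM024098.1.339, on the same strand, had 766.6, 729.4 and 2123 FPKM and 9495, 8774 and 25554 FPKM. The ratio of crab 3 to crab 1 was nearly the same in this run, 2.70, 2.77 and 2.69, although the levels differed over 10-fold.

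On CM024127.1 (positions 4222522 to 4258629) the added locus (positions 4222522 to 4249816), evm.TU.CM024127.1.179 and evm.TU.CM024127.1.180 followed each other on the plus strand with no other model between them. The added locus had 4549, 2968 and 2219 FPKM in crabs 1, 2 and 3. The gene evm.TU.CM024127.1.179 had 4659.9, 2997 and 3461 FPKM and evm.TU.CM024127.1.180 had 5394, 3528 and 3601 FPKM. All of them were lower in crab 3 than in crab 1, which held for 14 of the 149 genes in the deposited scaling and for 43 with plain totals. On CM024134.1 (positions 18195313 to 18268706) evm.TU.CM024134.1.395 and evm.TU.CM024134.1.396, 8 bases apart, had deposited ratios of crab 3 to crab 1 of 1.80 and 1.78, or 0.850 and 0.842 with plain totals. The gene evm.TU.CM024134.1.398, 19915 bases further on, had 3.60. The run on CM024096.1 (positions 4683718 to 4762530) was mixed. The genes evm.TU.CM024096.1.143, evm.TU.CM024096.1.144 and evm.TU.CM024096.1.147 lay on both strands, with deposited ratios of 7.28, 1.91 and 4.84, of which the 1.91 turns to 0.903 with plain totals.

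**Figure D3:**
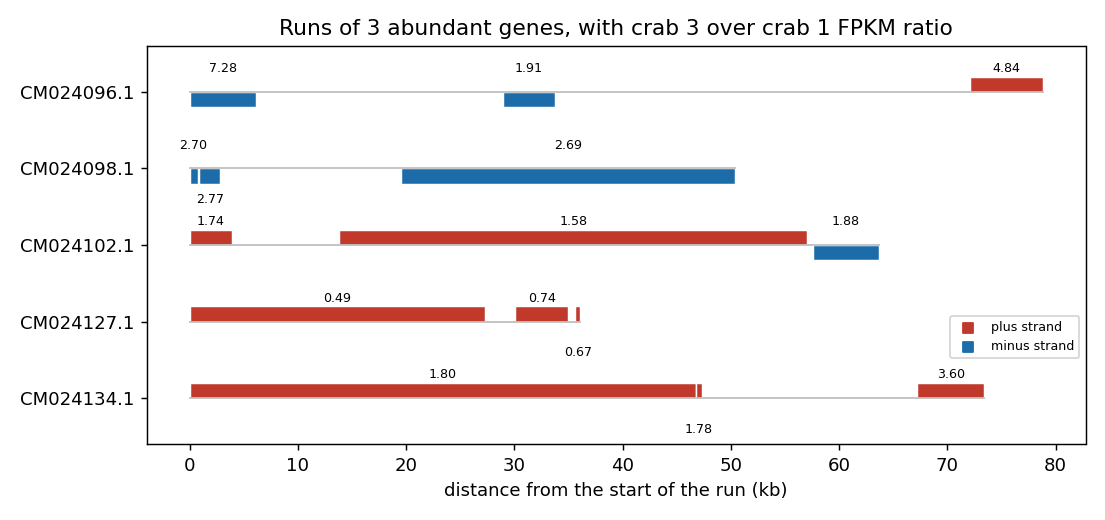
The 5 runs of 3 abundant genes as distance from the start of each run (kb); plus-strand models are drawn above the line in red and minus-strand models below it in blue, and the numbers are the deposited ratio of FPKM in crab 3 to crab 1, of which those under 2.11 fall below 1 with plain totals. Ratios within the run on CM024098.1 lie between 2.69 and 2.77, and those on CM024127.1 between 0.49 and 0.74.

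Ratios between crabs lay closer together in consecutive pairs of a run than in abundant genes on different sequences. The log2 ratio of crab 3 to crab 1 differed by a median of 0.26 between the 22 consecutive pairs, and by less than 1 in 19 of them. Between abundant genes on different sequences it differed by a median of 0.92, and by less than 1 in 53.0% of 10836 pairs. These values are a description with no test. The 22 pairs include the 5 same-strand pairs mentioned above, 8 to 1714 bases apart, and 1 overlapping pair. Their part in the median was not tested. Genes in runs are also an uneven part of the set. Of the 37 genes with a deposited ratio under 2, 21 stood in a run, and of the 68 with a ratio of 4 to 8, 6 did. Genes of different runs were not compared, so an effect of position cannot be told apart from this. Some 11 abundant genes (7.38%) overlapped another model, all on the opposite strand. The share was 6.77% in the next class and 13.5% in all genes. In 1 case both models were abundant: an added locus at positions 9512708 to 9527154 of CM024101.1 (2629, 2475 and 4209.7 FPKM) lies within the longer one named above. Strand use in counting was not stated, so reads of such partners cannot be told apart.

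Many abundant genes ranged widely between crabs in the deposited values. A gene was called different when log2(FPKM + 1) ranged over at least 2, a 4-fold span, between crabs. This held for 93 of the 149 genes (62.4%), against 39.1% of the next class and 14.4% of all genes of at least 1 FPKM. In the deposited scaling the highest level was in crab 3 for 135 of the genes, in crab 1 for 14 and in crab 2 for 0, and with plain totals for 104, 32 and 13. Crab 3 was also highest in 385 of the 532 genes of the next class in the deposited scaling. It was highest in 4742 of the 12319 genes of at least 1 FPKM. With plain totals these counts were 206 and 1725. Without crab 3 only 3 of the 149 genes were called. Crab 2 was within 1.5-fold of crab 1 in 108 of the 149 genes, and no such count is given for other genes.

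Whether abundant genes were called more or less often than all genes of at least 1 FPKM depended on the scaling of the libraries. The authors' FPKM of crab 3 used a library size of 0.491 times its assigned reads, while those of crabs 1 and 2 used 1.04 and 1.27 times. With each library scaled to its plain total of reads, 11 of the 149 genes (7.38%) were called, against 22.1% of all genes of at least 1 FPKM. With scaling by the median ratio over genes, 100 (67.1%) were called, against 13.1%. Scaling shifts the ratios of all genes alike, so it does not bear on the distance between the abundant genes and others except through the pseudocount of 1. Their median log2 ratio of crab 3 to crab 1 was 1.94 and that of all 12319 genes of at least 1 FPKM was -0.12 in the deposited scaling, a gap of 2.06. With plain totals the medians were 0.86 and -0.85, and the gap of 1.71 differs through the pseudocount alone. Between crabs 2 and 1 the gap was -0.20 in the deposited scaling.

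The mean over crabs, which chose the genes, gives most weight to the crab with the highest values. A set chosen without crab 3 was therefore added after the data had been seen. It holds the 76 genes with a mean of at least 1000 FPKM over crabs 1 and 2. In this set 65 genes (85.5%) were higher in crab 3 than in the mean of the other crabs, against 44.4% of all genes of at least 1 FPKM. The median log2 ratio was 1.45, against -0.17 for all these genes. With plain totals 45 genes (59.2%) were higher, against 18.3%, and the median was 0.23, against -1.03.

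The ratios were not spread evenly over the set. In the deposited scaling crab 3 stood 4 to 8 times above crab 1 in 68 genes, and in 60 of those crab 2 was within 1.5-fold of crab 1. The ratio was 2 to 4 in 40 genes, under 2 in 37 and at least 8 in 4. These classes were set after the values had been seen, and they are described without a test and without a count in other genes. The 68 genes took 14.6% of the reads of crab 1, 12.5% of crab 2 and 36.8% of crab 3. The 37 genes with a ratio under 2 took 26.7%, 23.5% and 14.3%. The ratio fell somewhat with span (Spearman rho -0.30 over 149 genes). The median span was 5817.5 bases in the first of these classes and 11426 in the other, and 6 of 68 and 21 of 37 genes stood in a run.

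**Figure D4:**
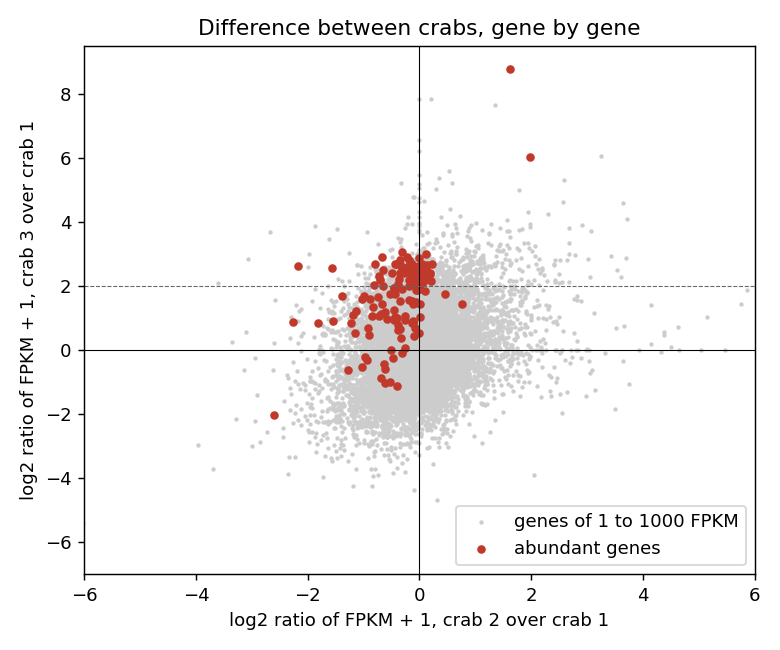
Log2 ratio of FPKM + 1 of crab 2 over crab 1 (horizontal) and crab 3 over crab 1 (vertical) for the 149 abundant genes (red) and genes of 1 to 1000 FPKM (grey); the dashed line is a log2 ratio of 2. In most abundant genes crab 2 lies near crab 1 and crab 3 lies above both, with a median vertical value of 1.94 against -0.12 for all genes of at least 1 FPKM.

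The widest range was that of evm.TU.CM024121.1.590, with 10.9, 33.4 and 4790.1 FPKM, a log2 range of 8.65. Next came evm.TU.CM024136.1.290, with 132, 519 and 8652 FPKM. Both owe their place in the set to crab 3 alone. The genes evm.TU.CM024157.1.88 (1227, 270.3 and 7564 FPKM), evm.TU.CM024163.1.348 (1641, 557 and 9613 FPKM) and evm.TU.CM024139.1.265 (439, 276 and 3272 FPKM) were lowest in crab 2 and highest in crab 3. In the deposited scaling the narrowest range was 0.31, in evm.TU.CM024113.1.178, with 15476, 12509 and 14657 FPKM. The genes evm.TU.CM024167.1.147, evm.TU.CM024099.1.44, evm.TU.CM024119.1.475 and evm.TU.CM024117.1.150 followed, with log2 ranges of 0.34, 0.48, 0.51 and 0.54. With plain totals these 5 genes had ranges of 1.16, 1.04, 1.32, 1.08 and 0.84, against a median of 1.14 over the 149 genes, and the narrowest range was 0.07, in evm.TU.CM024158.1.527. Which genes were narrowest thus depended on the scaling, while evm.TU.CM024121.1.590 and evm.TU.CM024136.1.290 were the widest in both.

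The order of the abundant genes was closest between crabs 1 and 2. Spearman rho of FPKM over the 149 genes was 0.88 for crabs 1 and 2, 0.65 for crabs 2 and 3 and 0.54 for crabs 1 and 3. In the deposited scaling 7 of the 20 highest genes were called different, and of the other 129 genes 86 (66.7%) were. With plain totals 11 of the 149 were called. Of the 20 highest these included only evm.TU.CM024154.1.286 (log2 range 2.21) and evm.TU.CM024140.1.211 (2.12), so this contrast also depended on the scaling.

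Accessibility was measured in libraries that the choice of the genes did not use. A peak within 2 kb of the TSS was called for 85.9% of the abundant genes in crab 1, 73.8% in crab 2 and 88.6% in crab 3. The share lay above that of the next class in each of the 3 libraries, by 15.5 ± 2.35 percentage points (SD, n = 3; exact sign-flip test over libraries, two-sided, p = 0.25, the smallest p that 3 libraries allow). The same genes carried the peak in all 3 libraries in 109 cases (73.2%), against 53.2% of the next class and 23.0% of all genes. Exon length was a multiple of 3 in 73.3% of the EVM models, so many may hold no untranslated exons, and the TSS is the start of the model. The peak was called in 2 libraries for 15 genes, in 1 for 13 and in none for 12. The peak list of crab 3 carries names with the number 7, so its pairing with crab 3 rests on the sample record.

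The summits gathered close to the start. A summit fell into the 500 bases downstream of the TSS in 49.7% of the abundant genes, as a mean of the 3 libraries, and into the 500 bases upstream in 37.8%. The next class had 35.8% and 30.8%, and genes without a read 5.29% and 4.21%. Among genes with a TSS peak, the strongest summit of abundant genes was a median of 250.2 ± 15.3 bases from the TSS, against 304 ± 19.3 bases in the next class (SD, n = 3). Another TSS lay within 2 kb for 31 of the abundant genes (20.8%), close to the 20.2% of all genes, and for these the owner of the peak cannot be told apart.

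**Figure D5:**
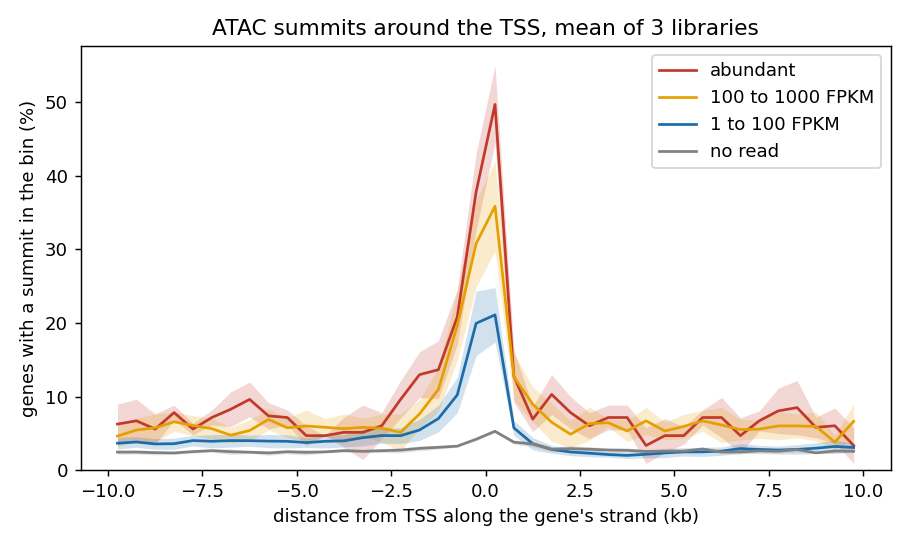
Share of genes with an ATAC summit in each bin of 500 bases around the TSS, along the gene's strand, as the mean of 3 libraries with a band of 1 SD, for genes grouped by mean FPKM. Abundant genes reach 49.7% in the first bin after the TSS, above the 35.8% of the next class.

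More TSS peaks did not go with higher fold enrichment at the TSS. The median fold enrichment over local background of the strongest TSS peak was 3.93 ± 0.461 in abundant genes and 4.10 in the next class (SD, n = 3). It was lower in abundant genes in 3 of 3 libraries, by 0.06 to 0.27 (exact sign-flip test, two-sided, p = 0.25, the smallest possible). Within the set, Spearman rho of FPKM with this enrichment was -0.15, 0.02 and -0.01 in crabs 1, 2 and 3. The highest enrichment belonged to evm.TU.CM024139.1.265, with 7.48, 8.66 and 9.92, a gene that ranked only 114th by level. Next came evm.TU.CM024149.1.143 (5.88, 7.67 and 10.1), evm.TU.CM024135.1.847, evm.TU.CM024155.1.138 and evm.TU.CM024096.1.143, with means of 7.88, 7.58, 7.55 and 7.41.

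The genes with the highest mean levels, evm.TU.CM024112.1.203 and evm.TU.CM024117.1.150, had low enrichment on a raised background. Low enrichment was not shared by all genes of high rank, as evm.TU.CM024119.1.475 lay above the median of abundant genes in each crab. In the TSS window of evm.TU.CM024112.1.203 the enrichment was 1.88, 2.59 and 2.18, and in that of evm.TU.CM024117.1.150 it was 1.76, 1.89 and 2.09. The summits lay 1753, 2208 and 1632 bases past the TSS in the first gene, whose span is 1962 bases. In the second, of 279 bases, they lay 1895, 324 and 559 bases past it. These summits thus lay near or past the end of the models. Fold enrichment and p together fix the pileup at a summit and the local background. For evm.TU.CM024112.1.203 these gave pileups of 146, 110.0 and 279 over backgrounds of 77.3, 41.9 and 127, while the median background at abundant genes was 11.7, 7.72 and 10.7 in crabs 1, 2 and 3. For evm.TU.CM024139.1.265, with summits at offsets of -92, -65 and -113 bases from the TSS, the pileups were 185, 109 and 357. The backgrounds there were 23.9, 11.7 and 35.1. The pileups of both genes were of similar size, and the backgrounds were not.

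The 20 highest genes as a group had both a higher background and a higher pileup. Where they had a TSS peak, the median background was 36.7, 18.7 and 52.0 in crabs 1, 2 and 3, against 11.0, 7.29 and 9.24 in the other abundant genes. The median pileup was 106.5, 52.5 and 169, against 46.5, 30.0 and 50.0. Across abundant genes with a TSS peak, Spearman rho of FPKM with pileup was 0.44, 0.29 and 0.17 in crabs 1, 2 and 3. With background it was 0.50, 0.35 and 0.16. As a whole, however, abundant genes had a lower median pileup than the next class in 3 of 3 libraries, with ratios of 0.961, 0.795 and 0.783 (exact sign-flip test, two-sided, p = 0.25).

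The gene body, past 2 kb from the TSS, exists in 137 of the 149 abundant models. It exists in 430 of the 532 of the next class and in 20696 of all 28671. Models without a body counted as having no peak. On this count the share of abundant genes with a body peak was 34.0% ± 5.71 (SD, n = 3). It differed from that of the next class by 0.42 ± 1.33 percentage points (SD, n = 3, exact sign-flip test, two-sided, p = 0.75). The count lowers the share of the next class more, so it does not compare models that have a body. A body peak in all 3 libraries was found in 36 genes (24.2%), against 12.9% of all genes. Per length, body peaks were denser in abundant genes in 3 of 3 libraries, with 1.55 per 10 kb against 0.992 in the next class and 0.380 in all genes. They sat mostly in the long genes. Of the 23 abundant genes of at least 20 kb, 98.6% ± 2.51 had a body peak, against 85.8% of such genes in the next class. At 5 to 20 kb the shares were close, 38.2% and 36.2%. Under 5 kb the abundant genes stood lower, with 2.92% against 7.60%. The most were counted in evm.TU.CM024154.1.286, with 26, 11 and 23 body peaks in crabs 1, 2 and 3, and in evm.TU.CM024113.1.178, with 15, 15 and 21.

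Flanks were taken from the edge of the TSS window to 10 kb upstream and over 10 kb past the gene's end. Upstream, 56.8% ± 6.34 of the abundant genes had a peak, 8.26 ± 1.61 percentage points above the next class (SD, n = 3), and 62 genes (41.6%) had one in all 3 libraries, against 20.8% of all genes. Downstream, the share was 67.1% ± 9.89, 8.47 ± 2.38 points above, and 74 genes (49.7%) had a peak in all 3 libraries, against 22.0% of all genes. Both differences had the same direction in 3 of 3 libraries (exact sign-flip tests, two-sided, p = 0.25 each). Peaks in both flanks were also stronger than in the next class in 3 of 3 libraries. The median enrichment was higher by 0.425 ± 0.111 upstream and by 0.362 ± 0.275 downstream (SD, n = 3, exact sign-flip tests, two-sided, p = 0.25 each). Flank windows hold parts of neighbouring genes, and abundant genes have abundant neighbours more often.

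The TSS peak went with span. It was present in all 3 libraries in 36 of 57 abundant genes under 5 kb (63.2%), 54 of 69 of 5 to 20 kb (78.3%) and 19 of 23 of at least 20 kb (82.6%). In the next class the shares were 44.7%, 61.5% and 53.1%, so the abundant genes stood higher in each class of span.

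No abundant gene lacked a peak in all windows and libraries, against 1.88% of the next class and 17.3% of all genes. At the TSS 12 of the 149 had none, against 100 of the 532 of the next class and 15823 of all 28671. The most abundant of the 12 was evm.TU.CM024113.1.178 (CM024113.1, positions 4887594 to 4960547, minus strand), the gene with the second highest count of body peaks. The other genes with no TSS peak were evm.TU.CM024127.1.180, evm.TU.CM024147.1.563, the added locus on CM024127.1, evm.TU.CM024103.1.143, evm.TU.CM024157.1.88, evm.TU.CM024121.1.590, evm.TU.CM024096.1.192, evm.TU.CM024121.1.487, evm.TU.CM024158.1.527, evm.TU.CM024135.1.304 and evm.TU.CM024138.1.97. Of the 12 genes 11 had a body or flank peak in all 3 libraries. So had 79 of the 109 with a TSS peak in all 3 libraries and 21 of the 28 with one in 1 or 2.

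Differences between crabs in RNA and at the TSS did not go together gene by gene. Of the 123 abundant genes with a TSS peak in crabs 1 and 3, 101 had the higher enrichment in crab 3, as had 296 of 352 in the next class. Across these 123 genes the log2 ratios of both assays had a Spearman rho of 0.05. Both evm.TU.CM024121.1.590 and evm.TU.CM024157.1.88, with some of the widest ranges in RNA, had no TSS peak in any crab. The gene evm.TU.CM024136.1.290 had enrichments of 2.56, 2.90 and 2.97, while its FPKM in crab 3 was 65.7 times that in crab 1, or 31.1 times with plain totals.

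Some abundant genes stand on the lists of genes that changed in both assays between adjacent molting stages. These lists accompany the study, and those that involve the inter-molt stage were chosen partly on these samples, so they are not independent of the values above. Of the 149 genes 14 (9.40%) stood on at least 1 list, against 12.2% of the next class and 5.67% of genes of at least 1 FPKM. The list labelled down-regulated for pre-molt against molt held 11 of them (7.38% of the abundant genes), close to the 6.39% of the next class, and its up-regulated counterpart held 0, against 2.82% of the next class. The 11 were evm.TU.CM024097.1.114, evm.TU.CM024103.1.339, evm.TU.CM024107.1.113, evm.TU.CM024114.1.113, evm.TU.CM024131.1.49, evm.TU.CM024136.1.421, evm.TU.CM024139.1.176, evm.TU.CM024141.1.63, evm.TU.CM024156.1.354, evm.TU.CM024157.1.207 and evm.TU.CM024163.1.378. The genes evm.TU.CM024119.1.475 and evm.TU.CM024167.1.147 stood on the post-molt against inter-molt list labelled down-regulated. The gene evm.TU.CM024136.1.421 stood also on the inter-molt against pre-molt list labelled up-regulated. The gene evm.TU.CM024158.1.554 stood on a molt against post-molt list.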

How the data were processed

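Per the study's methods, the authors aligned RNA reads with HISAT2 (2.0.5), counted them per gene with featureCounts (1.5.0-p3), left out reads mapping to several places and deposited FPKM, with exon lengths and positions in bases. ATAC reads were aligned with BWA and peaks called per library with MACS2. The deposited fold enrichment (a ratio of pileup to local background), −log10 p and −log10 q, and score (10 times the −log10 q) are the authors' values; q was used only as an alternative threshold. The sources used here give no reason for the library sizes behind FPKM.

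FPKM times exon length came in whole steps in 100% of values (within 1%), which gave the reads; no count test was run. Peaks sharing an interval counted once, by their highest enrichment. The TSS window reached 2 kb to each side, the body was the rest of the model, flanks reached to 10 kb. Positions count from 1. Runs joined abundant genes within 50 kb. Ranges used log2(FPKM + 1), which understates changes of low genes. MACS2 pileup and background were solved from enrichment and p in 100% of peaks. Replicates were separate crabs, and differences between classes were tested over the 3 ATAC libraries by an exact sign-flip test. No test was adjusted, as none could pass 0.05.

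Named genes were the 20 highest, the 3 on each side of the threshold, the 5 at each extreme of range and span, the 5 of greatest exon length or TSS enrichment, runs of 3, intronless genes among the 20 highest and genes on stage lists. The 12 genes with no TSS peak, the other intronless genes and the overlapping added locus were named after their values were seen. The abundant genes, lists and windows were chosen with earlier results of these data known. Alternatives were other thresholds, scalings, pseudocounts, windows and gaps, and each crab left out. The functions were tested on simulated data. Python 3.11.15, numpy 2.4.6, scipy 1.17.1, pandas 2.3.3 and matplotlib 3.10.9 were used.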

Additional observations from a re-analysis of the deposited data

How the results depend on the processing

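The number of abundant genes was 77 at 2000 FPKM, 82 by the median over crabs, 59 when every crab had to pass and 76 to 165 with 1 crab left out, the lowest without crab 3. Taking the genes with most reads gave a median exon length of 1638 bases, span of 9216 bases and intron share of 83.1%. The number called different between crabs was 11 with plain totals and 3 to 91 with 1 crab left out, the lowest without crab 3. The share with a body peak was taken over all models, also those without a body. Its difference from the next class reversed without crab 1 (-0.26 points, with a range of -0.26 to 1.06 over crabs left out). With no filter on low values the background share of genes called different was 6.17%. The share of abundant genes with a TSS peak was 73.6% with 1 kb windows and 67.8% at −log10 q of at least 5, where the body share was 25.7%, the upstream share 43.6% and the downstream share 48.8%. The other 68 alternatives kept the direction of differences and counts within 1.5 times, but some differences changed in size. That in TSS enrichment was -0.02 with a 3 kb window (p = 1, exact sign-flip test), and that in body peaks was 2.29 points at −log10 q of at least 5 and 2.96 points with members by plain totals. The cause of the changes was not tested. No paired analysis was possible because the groups with shared numbers are the 2 assays, in different units, and no test compares them. With 3 libraries no test can reach 0.05. RNA read depth did not limit abundant genes. Whether ATAC depth limited the peak calls was not tested. Crab 2 had 49574 peaks, against 57320 in crab 1 and 56919 in crab 3.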
